A study of Mus musculus with 35 samples.

Results

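Saa3, Hp, Lcn2, S100a8, S100a9 and Cp encode secreted acute-phase proteins and alarmins. Their transcripts were followed in 35 RNA-seq libraries of mouse bone marrow-derived macrophages (BMDMs). They are 6 of the 47069 Ensembl identifiers in the deposited tables and were found by gene symbol, each at 1 identifier. The genes were selected on their measured values in these libraries, above all on the rise from LPS to LPS + Dex in wild-type (WT) BMDMs. Every WT contrast that holds an LPS library is therefore given as a description with no test. Tests are given for the libraries labelled AMPKa1-/-, for DAMPs and for Dex alone.

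BMDMs of C57BL/6 mice were grown from bone marrow in L929-conditioned medium, which supplies macrophage growth factor, and came from WT mice or from mice labelled AMPKa1-/- (KO-labelled from here on). They were treated for 24 h with DMSO vehicle, 100 nM dexamethasone (Dex, a synthetic glucocorticoid), 100 ng/ml lipopolysaccharide (LPS, a bacterial ligand of the receptor TLR4), LPS + Dex, 1 µg/ml DAMPs (danger signals, whose make-up the sources used here do not give) or DAMPs + Dex, with the same Dex dose in each combination. Each group has 3 libraries except WT LPS, which has 2 (replicates 2 and 3), giving 17 WT and 18 KO-labelled libraries. The study's methods take a replicate as a culture from 1 mouse and state mixed sexes. Library totals were 15837203 to 31955298 fragments. FPKM counts fragments relative to gene length and to the library's total, so its levels can be set side by side between genes as far as the gene length taken holds, which for Saa3, Lcn2 and Cp is far below the length of their annotated exons.

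In the acute-phase response, inflammatory cytokines and glucocorticoids together raise the liver's output of a set of plasma proteins. Macrophages and neutrophils make some of the same proteins locally. The alarmins S100A8 and S100A9 are best known as abundant neutrophil and monocyte proteins that pair to form calprotectin, which binds zinc, manganese and calcium and is sensed by TLR4. SAA3 is a serum amyloid A made outside the liver and carried on lipoprotein. Haptoglobin, the product of Hp, binds free haemoglobin. Lipocalin 2 (Lcn2) keeps iron from bacteria by binding their siderophores, and ceruloplasmin (Cp) is a copper protein that oxidises iron.

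All 10 macrophage markers listed were detected in every library, though not all at a high level. Their summed FPKM, led by Lyz2 (lysozyme) in all 35 libraries, ran from 16290.0 in KO LPS replicate 3 to 41230.0 in KO LPS + Dex replicate 1, and Mrc1, Fcgr1 and Itgam were as low as 0.135, 4.39 and 9.12 FPKM in single libraries. With LPS against vehicle in KO-labelled BMDMs 3 of the 10 were called higher and 5 lower, where 64.3% of all tested genes were called. The glucocorticoid-induced check genes, which include Tsc22d3, Fkbp5, Dusp1 and Per1, were higher with Dex for 6 of 6 genes in the KO-labelled and in the WT Dex contrasts tested. Between 24.3% and 37.7% of all tested genes were called in those contrasts. The LPS check genes, among them Il1b, Tnf, Il6 and Nos2, were higher for 6 of 6 genes in KO-labelled LPS against vehicle, and 3 of these reached the level needed for testing only through libraries with LPS. In LPS + Dex against LPS 6 of 6 were lower (37.7% of all tested genes called). None of these 6 was called for DAMPs against vehicle in either genotype, where only 2.01% of all tested genes were called in WT and 4.13% in KO-labelled BMDMs.

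The genotype label was not borne out by the level of its gene. Prkaa1, which encodes AMPKa1, was at 14.3 ± 2.19 FPKM (SD, n = 3) in WT vehicle libraries and 15.6 ± 0.861 FPKM (SD, n = 3) in KO-labelled vehicle libraries. A gene-level value cannot check an allele whose deleted part is not given here, so the genotype is named throughout as a label only.

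Neutrophil markers ran from absent to well detected, and those of hepatocytes were near 0. Csf3r, the receptor for granulocyte growth factor, averaged 53.9 FPKM over all libraries, and Camp and Mmp8 reached 133 and 118 FPKM. The 4 primary-granule genes Elane, Mpo, Prtn3 and Ctsg reached at most 0.475, 0.218, 0.340 and 0.378 FPKM in any library. Ly6g was at 0 in 31 of 35 libraries. The 16 neutrophil and precursor markers summed to 47.6 FPKM in WT Dex replicate 2 and to 266 FPKM in WT LPS replicate 2, led by Csf3r, Mmp8 or Camp. The 9 hepatocyte markers, with Alb and Apoa1 among them, summed to at most 3.11 FPKM. Markers of fibroblasts reached 24.75 FPKM in sum, in WT Dex replicate 3, and those of B cells, T cells, basophils and mast cells, and erythroid cells 3.19, 0.259, 0.878 and 0.208 FPKM. In bulk RNA, a change in the share of cells that express a gene and a change in RNA per cell cannot be told apart.

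The summed level of the 7 fibroblast markers was higher with Dex in WT DAMPs-treated cells, at 5.27, 1.34 and 8.31 FPKM with DAMPs and 9.42, 14.1 and 18.5 FPKM with DAMPs + Dex, without overlap. Of the 3 tested, Col1a2 and Col1a1 were called higher there, by 1.25 each on the log2(FPKM + 1) scale of the tests (limma, adjusted p = 0.0345 and 0.0386). In that contrast 24.3% of all tested genes were called. In KO-labelled BMDMs the sums were 1.94, 3.12 and 1.79 FPKM with DAMPs and 4.42, 3.74 and 1.997 FPKM with DAMPs + Dex, which overlapped. None of the 3 was called there (25.3% of all tested genes called). Dcn was at 2.04 for KO-labelled LPS against vehicle, but passed the filter only through libraries given LPS, with a mean of 0.179 FPKM over the other 24. Their part in the results for Saa3, Hp and Lcn2 was not tested.

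The 6 genes lie on 4 chromosomes. On GRCm38, Saa3 (ENSMUSG00000040026) is at chr7:46711998-46715700 on the minus strand, Hp (ENSMUSG00000031722) at chr8:109575128-109579172 minus and Lcn2 (ENSMUSG00000026822) at chr2:32384633-32388252 minus. Chromosome 3 holds S100a8 (ENSMUSG00000056054, chr3:90668978-90670035, plus), S100a9 (ENSMUSG00000056071, chr3:90692632-90695721, minus) and Cp (ENSMUSG00000003617, chr3:19957054-20009145, plus). S100a8 and S100a9 lie 22597 bases apart and are read from opposite strands.

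The 250 bases before the RefSeq start (GRCm38.p6) are shown for Saa3 and Lcn2, the most abundant of the genes with such a window, and for S100a8 and S100a9, whose levels parted under LPS + Dex. The runs are Saa3 at chr7:46715677-46715926 (minus), Lcn2 at chr2:32387740-32387989 (minus), S100a8 at chr3:90668821-90669070 (plus) and S100a9 at chr3:90695722-90695971 (minus). Each reads 5′ to 3′ on the gene's own strand, with matches to the searched motifs in capitals.
Saa3: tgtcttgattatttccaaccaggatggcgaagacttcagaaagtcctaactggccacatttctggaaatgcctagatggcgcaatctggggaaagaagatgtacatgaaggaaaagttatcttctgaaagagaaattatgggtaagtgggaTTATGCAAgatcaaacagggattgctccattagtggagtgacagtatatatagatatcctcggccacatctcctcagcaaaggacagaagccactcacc
Lcn2: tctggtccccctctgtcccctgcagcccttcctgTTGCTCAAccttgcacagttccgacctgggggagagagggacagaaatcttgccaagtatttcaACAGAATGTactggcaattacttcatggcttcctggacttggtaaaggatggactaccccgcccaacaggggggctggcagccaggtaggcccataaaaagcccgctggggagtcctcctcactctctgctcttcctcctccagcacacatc
S100a8: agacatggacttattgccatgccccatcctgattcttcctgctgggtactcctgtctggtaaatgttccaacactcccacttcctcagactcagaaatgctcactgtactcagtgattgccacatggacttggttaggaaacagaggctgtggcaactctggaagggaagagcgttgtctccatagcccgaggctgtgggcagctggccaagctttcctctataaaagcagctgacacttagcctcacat
S100a9: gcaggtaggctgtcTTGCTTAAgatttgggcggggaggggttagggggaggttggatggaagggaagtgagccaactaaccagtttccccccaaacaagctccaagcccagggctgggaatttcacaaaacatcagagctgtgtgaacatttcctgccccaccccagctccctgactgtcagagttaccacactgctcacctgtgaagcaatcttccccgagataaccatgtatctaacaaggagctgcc

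Windows of 300 bases, from 250 before to 50 after the start, were searched on both strands for 4 motifs. These were C/EBP (TTGCNNAA), NF-kB (GGGNN directly followed by TTNCC), the glucocorticoid receptor (ACANNNTGT) and STAT (TTCNNNGAA). A window was at hand for 5 of the 6 genes, all but Hp, and Cp had a pair of them. The C/EBP letters were found in Saa3 (TTATGCAA, the reverse strand, from base -99), Lcn2 (TTGCTCAA, from -216), S100a9 (TTGCTTAA, from -236) and Cp (TTTTGCAA, reverse strand, from -70 of its second window). The glucocorticoid receptor letters were found in Lcn2 (ACAGAATGT, from -152) and in S100a8 (ACATCGTGT, from base 26 after the start, outside the printed run). No window of these genes held the NF-kB or STAT letters. Of all 32851 windows, 10.8% held the C/EBP letters, 4.79% NF-kB, 6.85% the glucocorticoid receptor and 8.3% STAT.

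Saa3 was the most abundant transcript of the macrophages under LPS + Dex, at rank 1 of FPKM in all 6 LPS + Dex libraries. It also held the most fragments of any gene in all 6, a count that is not divided by length. Its FPKM rest on a gene length of 531 bases, where its annotated exons join to 2606, so its FPKM beside other genes depend on the length taken, as do those of Lcn2 (926 against 2623 bases). With vehicle it was at 58.8, 108 and 239.8 FPKM in WT and at 241, 92.8 and 53.99 FPKM in KO-labelled libraries. Dex alone gave 683, 325 and 1546 FPKM in WT and 1029, 1149 and 727 FPKM in KO-labelled libraries. All Dex libraries lay above all vehicle libraries of either genotype. LPS gave 53811 and 57212 FPKM in WT and 44192, 59262 and 28579.5 FPKM in KO-labelled libraries. Under LPS + Dex the values were 125958, 153213 and 225316 FPKM in WT and 139167, 140798 and 194819 FPKM in KO-labelled libraries. In both genotypes the LPS + Dex libraries were all above the LPS libraries, and the ratio of mean FPKM was 3.03 in WT and 3.596 in KO-labelled libraries. DAMPs gave 298, 200.2 and 931 FPKM in WT and 687, 502 and 889 FPKM in KO-labelled libraries. With DAMPs + Dex, Saa3 reached 7027, 12368 and 18467 FPKM in WT and 8164, 6586 and 9870.0 FPKM in KO-labelled libraries. DAMPs and DAMPs + Dex did not overlap in either genotype, and the means differed 26.5-fold and 11.9-fold, the former 50.6-fold without WT DAMPs replicate 3.

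On the log2(FPKM + 1) scale used for every test, Saa3 rose with Dex alone by 2.59 (SE 0.56, adjusted p = 0.000742) in WT and by 3.14 (SE 0.56, adjusted p = 8.30e-05) in KO-labelled BMDMs. LPS raised it by 8.61 (SE 0.56, adjusted p = 1.87e-13) in KO-labelled BMDMs, and LPS + Dex was higher than LPS by 1.89 (SE 0.56, adjusted p = 0.00786). The same contrasts in WT, given without a test, were 8.90 and 1.56. Dex added to DAMPs raised Saa3 by 4.93 (SE 0.56, adjusted p = 8.67e-08) in WT and by 3.58 (SE 0.56, adjusted p = 1.39e-05) in KO-labelled BMDMs. DAMPs + Dex was also above Dex alone, by 4.06 (SE 0.56, adjusted p = 0.000121) in WT and by 3.09 (SE 0.56, adjusted p = 0.00607) in KO-labelled BMDMs. DAMPs alone raised Saa3 in KO-labelled BMDMs by 2.65 (SE 0.56, adjusted p = 0.00412), and the WT difference of 1.72 (SE 0.56, adjusted p = 0.131) was not called. The latter passed the threshold with the replicate number as a block (adjusted p = 0.0258) and without WT DAMPs replicate 2 (adjusted p = 0.0404), and fell to 1.08 without WT DAMPs replicate 3 (adjusted p = 0.866). Other values moved by over 1.5 times without 1 library while keeping their call, namely the Saa3 differences for KO-labelled Dex (3.73) and DAMPs (3.23) against vehicle without KO vehicle replicate 1, and for WT DAMPs + Dex against DAMPs (5.58) without WT DAMPs replicate 3. Because Saa3 ranks first or second in the LPS libraries, quantile normalization, which gives each rank the same value in every library, left a difference of 0.28 between KO-labelled LPS + Dex and LPS (adjusted p = 0.734). The call for KO-labelled DAMPs against vehicle was lost without KO vehicle replicate 3 (adjusted p = 0.0516), and that for KO-labelled DAMPs + Dex against Dex without KO Dex replicate 3 (adjusted p = 0.0565) or without KO DAMPs + Dex replicate 1 (adjusted p = 0.0502).

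**Figure D1:**
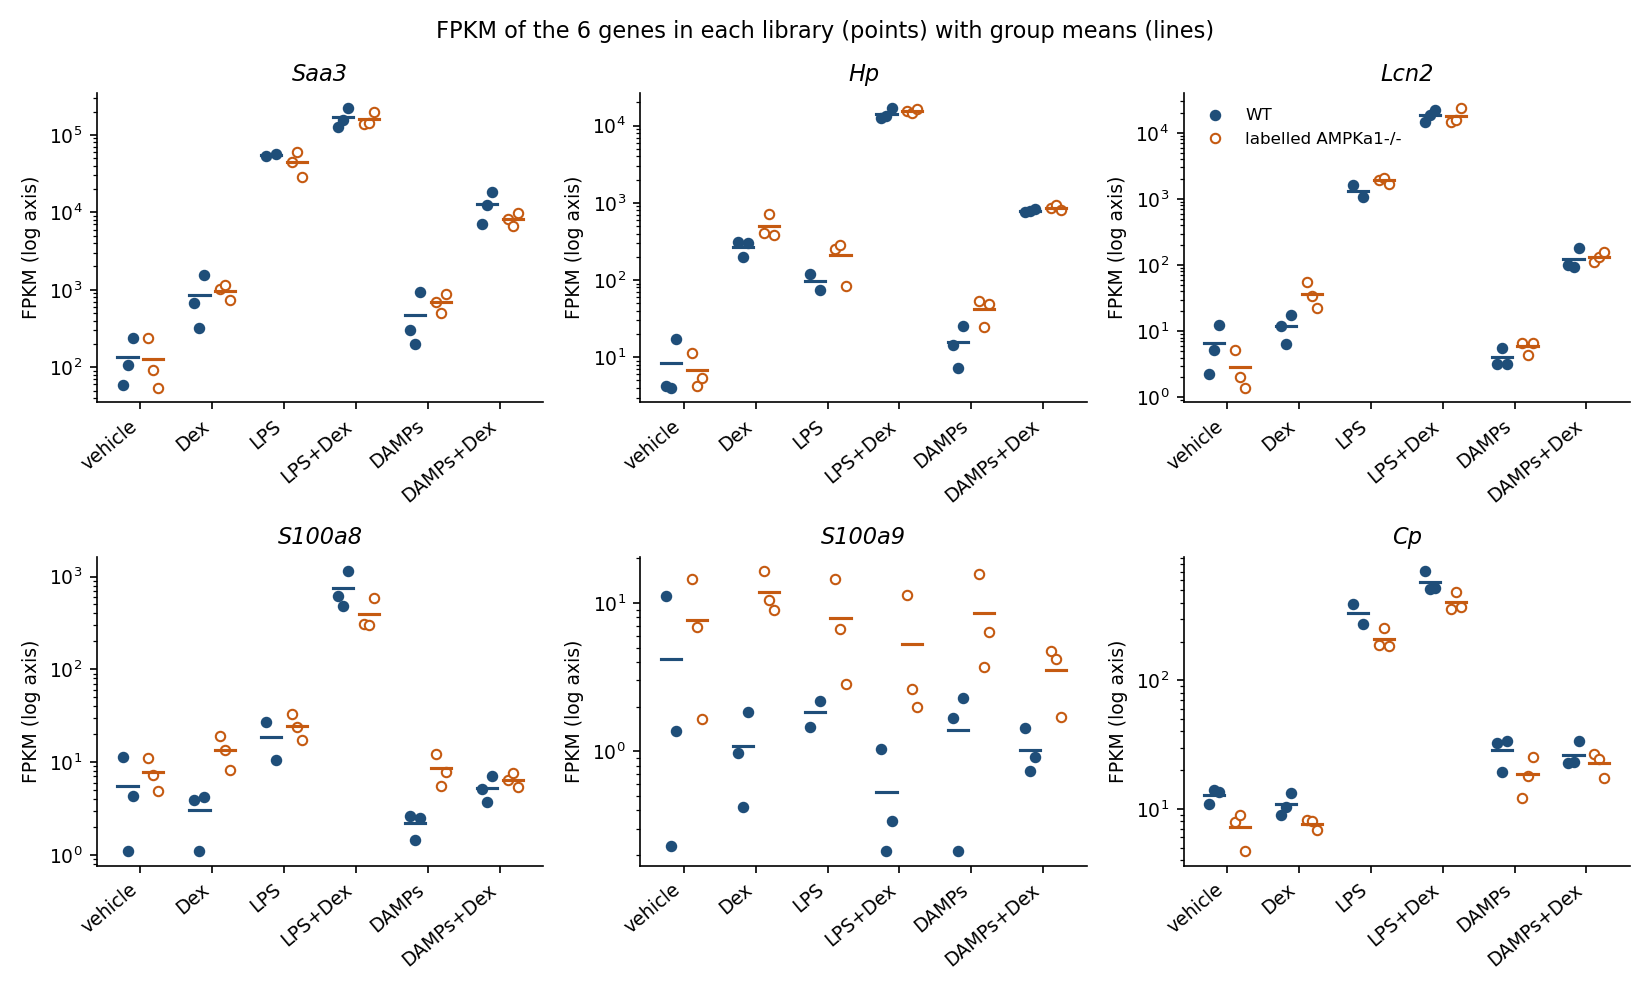
FPKM on a log axis (vertical) of each gene in each of the 35 libraries (points), by treatment (horizontal), with lines at the group means, for WT (filled) and KO-labelled BMDMs (open). Saa3, Hp, Lcn2 and S100a8 are highest in all LPS + Dex libraries, while S100a9 is highest in a KO-labelled Dex library at 16.4 FPKM and lowest, at 0.21 FPKM, in WT libraries.

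Hp responded to Dex in every setting. Vehicle libraries held 4.21, 3.99 and 17.3 FPKM in WT and 11.2, 4.19 and 5.34 FPKM in KO-labelled BMDMs, and Dex libraries held 308, 197 and 298 FPKM and 407, 707 and 389 FPKM. The ratio of mean FPKM of Dex to vehicle was 31.4 in WT (65.3 without WT vehicle replicate 3) and 72.5 in KO-labelled BMDMs, with no overlap of Dex and vehicle libraries. LPS gave 121 and 74.05 FPKM in WT and 254, 288 and 83.1 FPKM in KO-labelled BMDMs, and LPS + Dex gave 12453, 13518 and 17201 FPKM and 15517, 14745 and 16350.1 FPKM. Mean LPS + Dex over mean LPS was thus 148 in WT and 74.5 in KO-labelled BMDMs. DAMPs gave 14.5, 7.25 and 25.1 FPKM in WT and 52.9, 24.8 and 49.00 FPKM in KO-labelled BMDMs, and DAMPs + Dex gave 753, 784 and 837 FPKM and 848, 945 and 803 FPKM. Every library with Dex was above every library with the same stimulus alone. In the order of group means, both Dex-only groups stood above both LPS-only groups, the reverse of the order for Saa3, Lcn2 and Cp, although WT Dex and KO-labelled LPS overlapped.

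In the tests, Hp rose with Dex by 5.08 (SE 0.45, adjusted p = 1.43e-09) in WT and by 6.03 (SE 0.45, adjusted p = 5.34e-11) in KO-labelled BMDMs. Among DAMPs-treated cells the Dex effect was 5.73 (SE 0.45, adjusted p = 1.31e-10) in WT and 4.39 (SE 0.45, adjusted p = 1.78e-08) in KO-labelled BMDMs. KO-labelled LPS + Dex exceeded LPS by 6.40 (SE 0.45, adjusted p = 4.21e-12) and Dex alone by 5.01 (SE 0.45, adjusted p = 2.88e-10). The WT counterpart of the first, without a test, was 7.22. LPS alone raised Hp by 4.64 (SE 0.45, adjusted p = 8.11e-10) and DAMPs alone by 2.48 (SE 0.45, adjusted p = 0.00116) in KO-labelled BMDMs. In WT, DAMPs against vehicle was 0.94 (SE 0.45, adjusted p = 0.509) and DAMPs + Dex against Dex was 1.59 (SE 0.45, adjusted p = 0.0993), and neither was called. The latter was called when only the compared groups were fitted (adjusted p = 0.0207). Without WT vehicle replicate 3, the WT differences of Dex and of DAMPs against vehicle were 5.69, still called, and 1.55 (adjusted p = 0.108).

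Lcn2 rose with Dex among DAMPs-treated BMDMs of both genotypes, while DAMPs alone against vehicle was not called in either. Vehicle libraries held 2.29, 5.21 and 12.4 FPKM in WT and 5.203, 2.06 and 1.38 FPKM in KO-labelled BMDMs, and Dex libraries 11.9, 6.35 and 17.7 FPKM and 55.2, 33.9 and 22.1 FPKM. WT Dex and vehicle overlapped, and KO-labelled Dex and vehicle did not. DAMPs alone left Lcn2 at 3.25, 5.59 and 3.19 FPKM in WT and 6.64, 4.43 and 6.73 FPKM in KO-labelled BMDMs, whereas DAMPs + Dex gave 99.00, 93.3 and 182 FPKM and 109.7, 132 and 157 FPKM. The DAMPs libraries overlapped with vehicle, and the DAMPs + Dex means were 31.1-fold and 22.4-fold above DAMPs. LPS gave 1603 and 1076 FPKM in WT and 1964, 2046 and 1706 FPKM in KO-labelled BMDMs. LPS + Dex reached 14828, 18873 and 22431 FPKM in WT and 14757, 15797 and 24153 FPKM in KO-labelled BMDMs. No LPS + Dex library was within reach of an LPS library, and the mean was 150.1-fold above that of DAMPs + Dex in WT and 137-fold in KO-labelled BMDMs.

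The Dex effect on Lcn2 among DAMPs-treated BMDMs was 4.61 (SE 0.41, adjusted p = 1.08e-09) in WT and 4.27 (SE 0.41, adjusted p = 4.41e-09) in KO-labelled cells. Without a stimulus it was 3.32 (SE 0.41, adjusted p = 4.03e-07) in KO-labelled BMDMs and 0.90 (SE 0.41, adjusted p = 0.0941), not called, in WT. The WT value passed the threshold without WT vehicle replicate 3 (1.42, adjusted p = 0.0108) or without WT Dex replicate 2 (1.26, adjusted p = 0.0397), and was as low as 0.41 without WT vehicle replicate 1 (adjusted p = 0.477). The genotype difference in this Dex effect was 2.42 with a 95% interval of 1.24 to 3.60, and it did not pass the threshold over all genes (adjusted p = 0.116). In KO-labelled BMDMs LPS raised Lcn2 by 9.06 (SE 0.41, adjusted p = 8.03e-17), and Dex added 3.23 (SE 0.41, adjusted p = 2.34e-07) to that. The WT descriptions were 7.66 and 3.81. DAMPs + Dex stood above Dex alone by 3.31 (SE 0.41, adjusted p = 2.80e-05) in WT and by 1.90 (SE 0.41, adjusted p = 0.0396) in KO-labelled BMDMs. The latter call was lost without KO Dex replicate 2 or 3 or any 1 of the KO DAMPs + Dex replicates (adjusted p of 0.11 to 0.269), and under 5 of 11 other settings (adjusted p of 0.0658 to 0.132).

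Cp rose with LPS and with DAMPs, and the effect of Dex on it was called only in the presence of LPS. Its vehicle values were 10.98, 13.9 and 13.5 FPKM in WT and 7.91, 9.03 and 4.66 FPKM in KO-labelled BMDMs, and those with Dex 9.01, 10.4 and 13.4 FPKM and 8.22, 7.98 and 6.88 FPKM. Dex and vehicle libraries overlapped in both genotypes. LPS gave 389 and 274 FPKM in WT and 189, 253 and 183 FPKM in KO-labelled BMDMs, and LPS + Dex gave 708, 515 and 523 FPKM and 357, 489 and 374 FPKM. LPS and LPS + Dex did not overlap within a genotype, at mean ratios of 1.75 in WT and 1.95 in KO-labelled BMDMs. DAMPs gave 32.7, 19.5 and 34.00 FPKM in WT and 12.2, 18.05 and 25.4 FPKM in KO-labelled BMDMs, and DAMPs + Dex gave 22.7, 23.05 and 33.6 FPKM and 26.6, 24.4 and 17.4 FPKM. These 4 groups overlapped each other and lay above the vehicle libraries of their own genotype.

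Cp rose with LPS by 4.70 (SE 0.25, adjusted p = 2.34e-15) in KO-labelled BMDMs, and LPS + Dex exceeded LPS by 0.96 (SE 0.25, adjusted p = 0.00261). WT gave 4.58 and 0.81 without a test. DAMPs raised Cp by 1.07 (SE 0.25, adjusted p = 0.0186) in WT and by 1.24 (SE 0.25, adjusted p = 0.00256) in KO-labelled BMDMs. DAMPs + Dex was above Dex by 1.20 (SE 0.25, adjusted p = 0.0198) in WT and by 1.44 (SE 0.25, adjusted p = 0.0045) in KO-labelled BMDMs. Several of these calls were lost in other fits. For WT DAMPs the call was lost without any 1 of WT vehicle replicates 1 and 3 and WT DAMPs replicates 1 and 3, with adjusted p of 0.0599 to 0.185, and when only the compared groups were fitted (adjusted p = 0.2016). For WT DAMPs + Dex against Dex it was lost without WT Dex replicate 1 or 2 or WT DAMPs + Dex replicate 2 (adjusted p of 0.0569 to 0.133), with only the compared groups (adjusted p = 0.0828) and with totals that leave out the 6 genes (adjusted p = 0.0528). For KO-labelled DAMPs + Dex against Dex it was lost without KO DAMPs + Dex replicate 1 (adjusted p = 0.0563), and for KO-labelled DAMPs against vehicle when only the compared groups were fitted (adjusted p = 0.0693). The FPKM of Cp rest on a gene length of 2026 bases, where its annotated exons join to 9566, and Hps3 overlaps it, so that reads shared between them are uncertain.

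S100a8 and S100a9 parted under LPS + Dex. Vehicle libraries held S100a8 at 11.3, 1.09 and 4.27 FPKM in WT and 11.2, 7.21 and 4.82 FPKM in KO-labelled BMDMs, and Dex libraries at 3.95, 1.097 and 4.19 FPKM and 19.1, 13.4 and 8.13 FPKM. With LPS it was at 26.96 and 10.6 FPKM in WT and 33.01, 24.05 and 17.4 FPKM in KO-labelled BMDMs. LPS and vehicle did not overlap in KO-labelled BMDMs and overlapped in WT through vehicle replicate 1. Under LPS + Dex, S100a8 was at 617, 478 and 1147 FPKM in WT and 307, 301 and 581 FPKM in KO-labelled BMDMs, far above all other libraries. DAMPs gave 2.62, 1.45 and 2.48 FPKM in WT and 12.2, 5.59 and 7.85 FPKM in KO-labelled BMDMs, and DAMPs + Dex gave 5.105, 3.71 and 7.12 FPKM and 6.37, 7.57 and 5.39 FPKM. DAMPs + Dex and vehicle libraries overlapped in both genotypes.

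S100a9 stayed low throughout. Vehicle libraries held 11.1, 0.231 and 1.36 FPKM in WT and 14.6, 6.88 and 1.66 FPKM in KO-labelled BMDMs, and Dex libraries 0.973, 0.418 and 1.85 FPKM and 16.4, 10.4 and 8.94 FPKM. LPS gave 1.46 and 2.197 FPKM in WT and 14.5, 6.65 and 2.83 FPKM in KO-labelled BMDMs, against 1.03, 0.211 and 0.338 FPKM and 11.3, 2.64 and 1.99 FPKM under LPS + Dex. The WT LPS + Dex libraries were all below the WT LPS libraries, and the lowest of them rested on 2 fragments. With DAMPs it was at 1.66, 0.213 and 2.29 FPKM in WT and 15.6, 3.68 and 6.41 FPKM in KO-labelled BMDMs, and with DAMPs + Dex at 1.43, 0.733 and 0.910 FPKM and 4.71, 4.16 and 1.71 FPKM. Neighbouring groups in the order of S100a9 levels overlapped throughout, yet every KO-labelled group ranked above every WT group by mean log2(FPKM + 1). Within each treatment but vehicle, the KO-labelled libraries all lay above the WT libraries, a difference that was not tested. The share of all genes that part by genotype in this way was not computed. The neutrophil granule gene Ngp was among the 3 genes with a symbol whose group means followed S100a9 most closely (Pearson r = 0.896 over 12 group means). The part of other cells in the S100a9 values was not tested.

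S100a8 rose with LPS by 1.58 (SE 0.48, adjusted p = 0.00555) in KO-labelled BMDMs. LPS + Dex was higher than LPS by 3.92 (SE 0.48, adjusted p = 1.51e-07) and higher than Dex alone by 4.77 (SE 0.48, adjusted p = 2.36e-09). Over the same LPS + Dex against LPS contrast S100a9 differed by -0.58 (SE 0.68, adjusted p = 0.548), with a 95% interval of -1.98 to 0.81, and by -1.22 (adjusted p = 0.215) without KO LPS + Dex replicate 1. WT gave 5.28 for S100a8 and -0.91 for S100a9 without a test. The interaction of LPS and Dex, that is, the Dex effect with LPS less the Dex effect without it, was 3.19 (SE 0.68, adjusted p = 0.000648) for S100a8 in KO-labelled BMDMs. It was called for no other of the 6 genes on the deposited scale, with Cp at 0.84 (SE 0.35, adjusted p = 0.0745). Cp was called with totals that leave out the 6 genes (1.05, adjusted p = 0.033), with only the compared groups (adjusted p = 0.0458), without KO vehicle replicate 3 (adjusted p = 0.0221) and without KO LPS replicate 2 (adjusted p = 0.0456). Saa3, at -1.25 on the deposited scale (adjusted p = 0.258) and -1.84 without KO vehicle replicate 1 (adjusted p = 0.0861), was called with quantile normalization (-2.76, adjusted p = 0.00737). The 16 neutrophil markers summed to 95.2, 90.3 and 91.8 FPKM in the KO-labelled vehicle libraries, to 201, 215 and 233 FPKM in the KO-labelled LPS libraries and to 74.3, 73.3 and 71.5 FPKM in the KO-labelled LPS + Dex libraries. With LPS against vehicle, where S100a8 rose and 64.3% of all tested genes were called, 3 of the 7 that passed the filter were higher. Among these were Camp (5.67) and Csf3r (0.83), and 2 were lower, among them Mmp8 (-1.98). Of the same 7, 0 were called higher and 2 lower when Dex was added to LPS (37.7% of all tested genes called), namely Csf3r (-1.83) and Camp (cathelicidin, -1.84). Camp and Gfi1 passed only through libraries given LPS, with means of 0.8495 and 0.00871 FPKM over the other 24. The part of neutrophils in the S100a8 values was not tested.

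The FPKM ratio of S100a8 to S100a9, whose products pair in calprotectin, was 1.02, 4.72 and 3.15 in WT vehicle and 0.764, 1.05 and 2.91 in KO-labelled vehicle libraries. Under LPS it was 18.5 and 4.82 in WT and 2.28, 3.62 and 6.15 in KO-labelled libraries. LPS + Dex gave 598, 2271 and 3393 in WT and 27.1, 114 and 291 in KO-labelled libraries, so the lowest of the 6 exceeded the highest LPS ratio. Ratios in DAMPs + Dex libraries were 3.58, 5.07 and 7.83 in WT and 1.35, 1.82 and 3.15 in KO-labelled BMDMs. The WT ratios under LPS + Dex have a denominator of few fragments, so their size is loose.

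**Figure D2:**
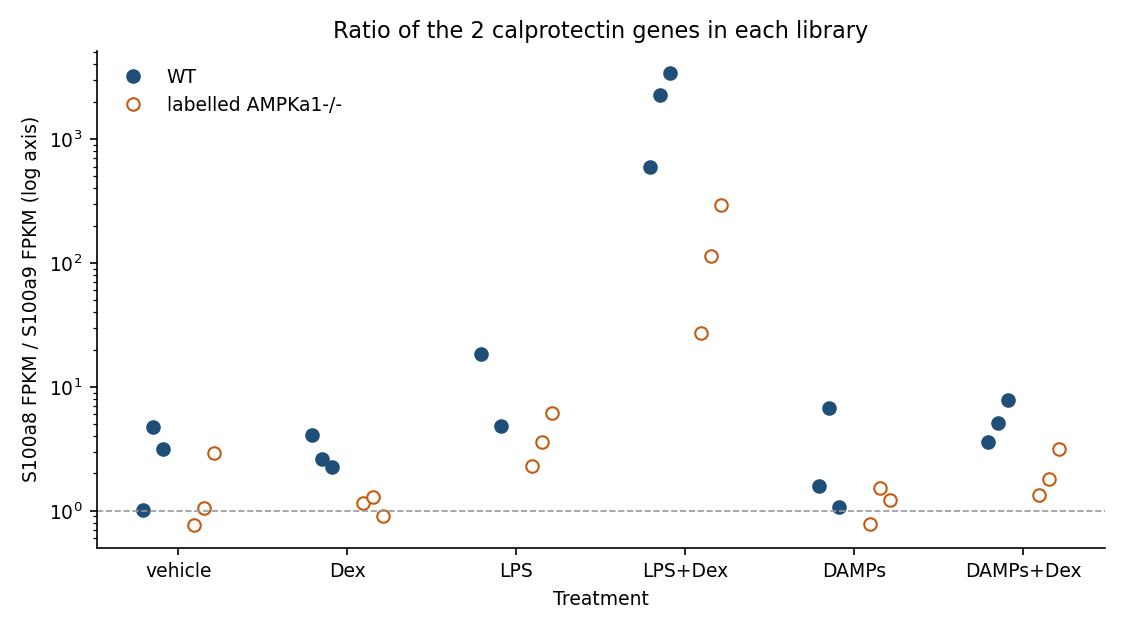
S100a8 FPKM divided by S100a9 FPKM on a log axis (vertical) for each of the 35 libraries (points) by treatment (horizontal), WT filled and KO-labelled open, with a dashed line at a ratio of 1. The LPS + Dex libraries, from 27.1 to 3393, lie above all others, whose highest is 18.5.

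Counted over the 6 genes, Dex alone raised 2 in WT (Saa3 and Hp, where 30.9% of the 11354 tested genes were called in either direction) and 3 in KO-labelled BMDMs (with Lcn2, background 27.9%). LPS raised 5 of 6 in KO-labelled BMDMs, all but S100a9, against a background of 64.3%. LPS + Dex exceeded LPS for the same number, again without S100a9 (background 37.7%), and exceeded Dex alone for 5 (background 57.9%). DAMPs raised 1 gene in WT (Cp, background 2.01%) and 3 in KO-labelled BMDMs (Saa3, Hp and Cp, background 4.13%). DAMPs + Dex exceeded DAMPs for 3 genes in WT (Saa3, Hp and Lcn2, background 24.3%, and S100a8 besides, at an adjusted p of 0.0304, when only the compared groups were fitted) and for those 3 in KO-labelled BMDMs (background 25.3%). DAMPs + Dex exceeded Dex for 3 genes in WT (Saa3, Lcn2 and Cp, background 0.52%) and for the same 3 in KO-labelled BMDMs (background 0.211%). None of the 6 was called lower in these contrasts. S100a9 at -1.29 for KO-labelled LPS + Dex against Dex (adjusted p = 0.105) was called lower with the replicate number as a block (adjusted p = 0.0143), with only the compared groups (adjusted p = 0.0482) and without KO LPS + Dex replicate 1 (adjusted p = 0.0267). Several contrasts share their vehicle or Dex libraries, and the members were chosen with such values in view.

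The remaining contrasts called few of the genes. Between KO-labelled and WT vehicle libraries none of the 6 was called (background 0.432%), with Cp at -0.79 (SE 0.25, adjusted p = 0.248) and Lcn2 at -0.86 (SE 0.41, adjusted p = 0.77). The KO-labelled interaction of LPS and Dex was called for S100a8 (background 28.4%). The WT interaction of DAMPs and Dex was called for Lcn2 at 3.72 (SE 0.58, adjusted p = 0.00732), the only gene of 11354 (background 0.00881%), while Saa3 was at 2.34 (SE 0.79, adjusted p = 0.363), or 2.98 without WT DAMPs replicate 3 (adjusted p = 0.36). That call was lost when only the compared groups (adjusted p = 0.192) or only WT libraries (adjusted p = 0.293) were fitted, with voom on recovered fragments (adjusted p = 0.132), without WT Dex replicate 2 (adjusted p = 0.0564) and without WT DAMPs + Dex replicate 3 (adjusted p = 0.057). In KO-labelled BMDMs that interaction was called for none of the 6 (background 0.308%). The genotype difference in the Dex effect was called by limma for 0 of 11354 genes (background 0%, 2441 at an unadjusted p under 0.05, and 0 by voom). For the genotype difference in the Dex effect among DAMPs-treated cells it was again 0 (background 0%, 234 unadjusted, and 0 by voom), with Hp at -1.33 (SE 0.64, adjusted p = 1). The median of all genes moved by -0.30 for KO-labelled LPS against vehicle, by -0.23 for KO-labelled LPS + Dex against Dex, by 0.11 for the KO-labelled interaction of DAMPs and Dex and by -0.10 for the genotype difference in the Dex effect. Values here are as fitted, and with libraries centred on 1 median S100a8 rose by 1.86 with LPS in KO-labelled BMDMs.

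**Figure D3:**
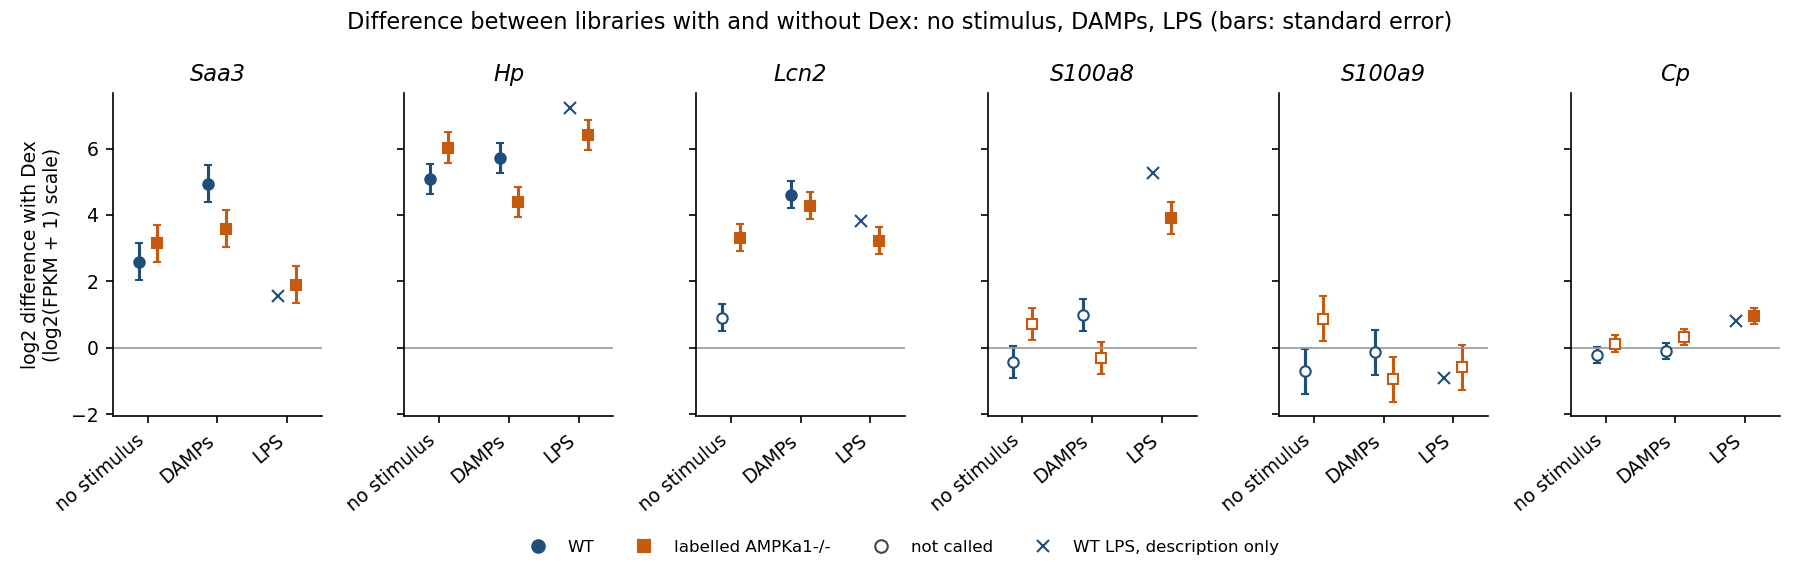
Difference between libraries with and without Dex on the log2(FPKM + 1) scale (vertical) for each gene without a stimulus, with DAMPs and with LPS (horizontal), for WT (circles) and KO-labelled BMDMs (squares), with bars of 1 standard error. Filled symbols were called, open ones were not, and crosses mark WT LPS, which carries no test. Hp is called in all 5 tested settings, from 4.39 to 6.40, whereas S100a8 and Cp are called only with LPS.

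Together the 6 genes took up a large share of the RNA under LPS + Dex. Their share of all fragments was 9.91, 11.8 and 16.5% in the WT LPS + Dex libraries and 10.9, 11.03 and 14.9% in the KO-labelled ones, against 3.102 and 3.204% and 2.603, 3.43 and 1.72% under LPS. Saa3 by itself made up 11.96% of the fragments of WT LPS + Dex replicate 3. DAMPs + Dex libraries were at 0.488, 0.776 and 1.12% in WT and 0.564, 0.494 and 0.650% in KO-labelled BMDMs, and the lowest share was 0.00498%, in KO vehicle replicate 3. FPKM of other genes in LPS + Dex libraries are therefore lowered by this share, and totals that leave out the 6 genes were one of the alternatives computed.

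**Figure D4:**
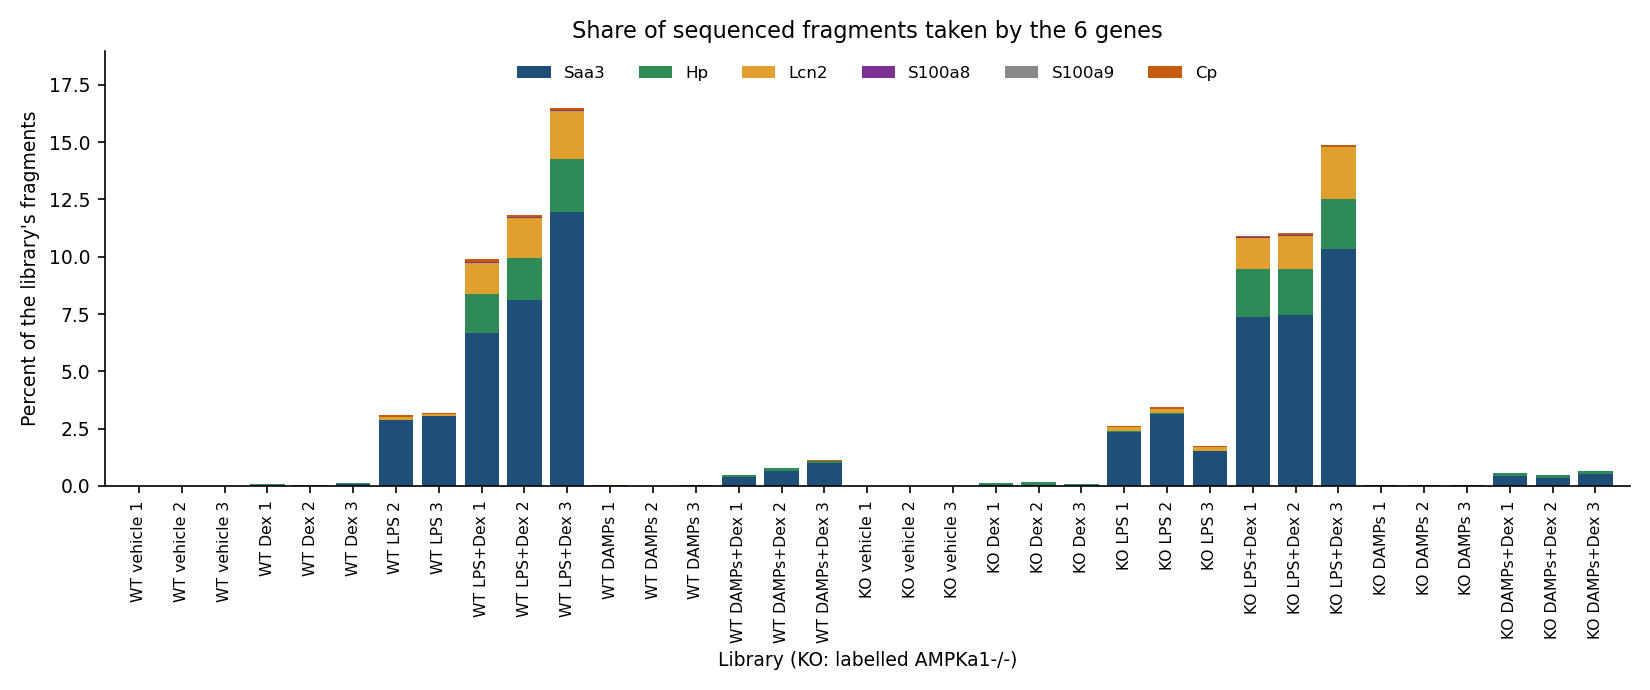
Percent of each library's fragments (vertical, bars stacked by gene) for the 35 libraries (horizontal). The 6 LPS + Dex libraries stand between 9.91% and 16.5%, mostly from Saa3, Hp and Lcn2, and all other libraries are at or below 3.43%.

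Other acute-phase genes moved in part with the 6. Of 38 further genes listed, 11 passed the filter. In KO-labelled LPS + Dex against LPS 7 were higher and 2 lower, where 37.7% of all tested genes were called. Saa2 and Ptx3 passed only through the LPS + Dex libraries, with means of 0.471 and 0.8996 FPKM over the other 29, and of the 9 that passed without those libraries 5 were higher and 2 lower. The higher ones were the metallothioneins Mt2 (3.58) and Mt1 (2.92), which bind zinc and copper, the plasma carrier Orm1 (3.50), the serum amyloids Saa2 (2.44) and Saa1 (1.98), the protease inhibitor Serpina3g (2.26) and the pattern receptor Ptx3 (1.87). The lower ones were Il1rn (-4.00), the interleukin-1 receptor antagonist, and Cfb (-1.64), complement factor B. Saa1 and Saa2 are near-identical copies, so their separate values are uncertain, and both were listed at 0 or close to it in vehicle libraries. Against vehicle, KO-labelled LPS raised 10 of the 11 and lowered Mt1 (-0.69), against a background of 64.3%. Only 6 of them passed without the libraries given LPS, and 5 of these were higher. The Mt1 call was lost in 9 of the other fits, among them those without KO vehicle replicate 1 or 2 or KO LPS replicate 2 or 3, and with median centring the difference was -0.41, and the Mt2 call of 1.12 was lost without KO vehicle replicate 3 (adjusted p = 0.0717). Dex alone raised 3 in WT (Orm1 1.57, Orm2 1.27, Mt2 2.04) and 4 in KO-labelled BMDMs (with Mt1), and lowered Il1rn in WT (-2.49) and KO-labelled BMDMs (-2.49). The background for Dex alone was 30.9% in WT and 27.9% in KO-labelled BMDMs. In KO-labelled BMDMs Orm2 lost its Dex call without KO vehicle replicate 2 or 3 or KO Dex replicate 1 or 3 (adjusted p of 0.0626 to 0.153) and in 4 other settings (adjusted p of 0.0514 to 0.0753). With DAMPs alone only complement C3 was called, at 2.21 in WT (background 2.01%) and 2.43 in KO-labelled BMDMs (background 4.13%). The WT call was lost when only the compared groups were fitted (adjusted p = 0.0801). Dex added to DAMPs raised 4 in each genotype (background 24.3% in WT and 25.3% in KO-labelled BMDMs), namely Orm1, Orm2, Mt1 and Mt2. It lowered Il1rn, at -3.16 in WT and -3.32 in KO-labelled BMDMs. In WT it also lowered Cfb (-0.55, adjusted p = 0.0381), a call that was lost in 7 other fits.

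**Figure D5:**
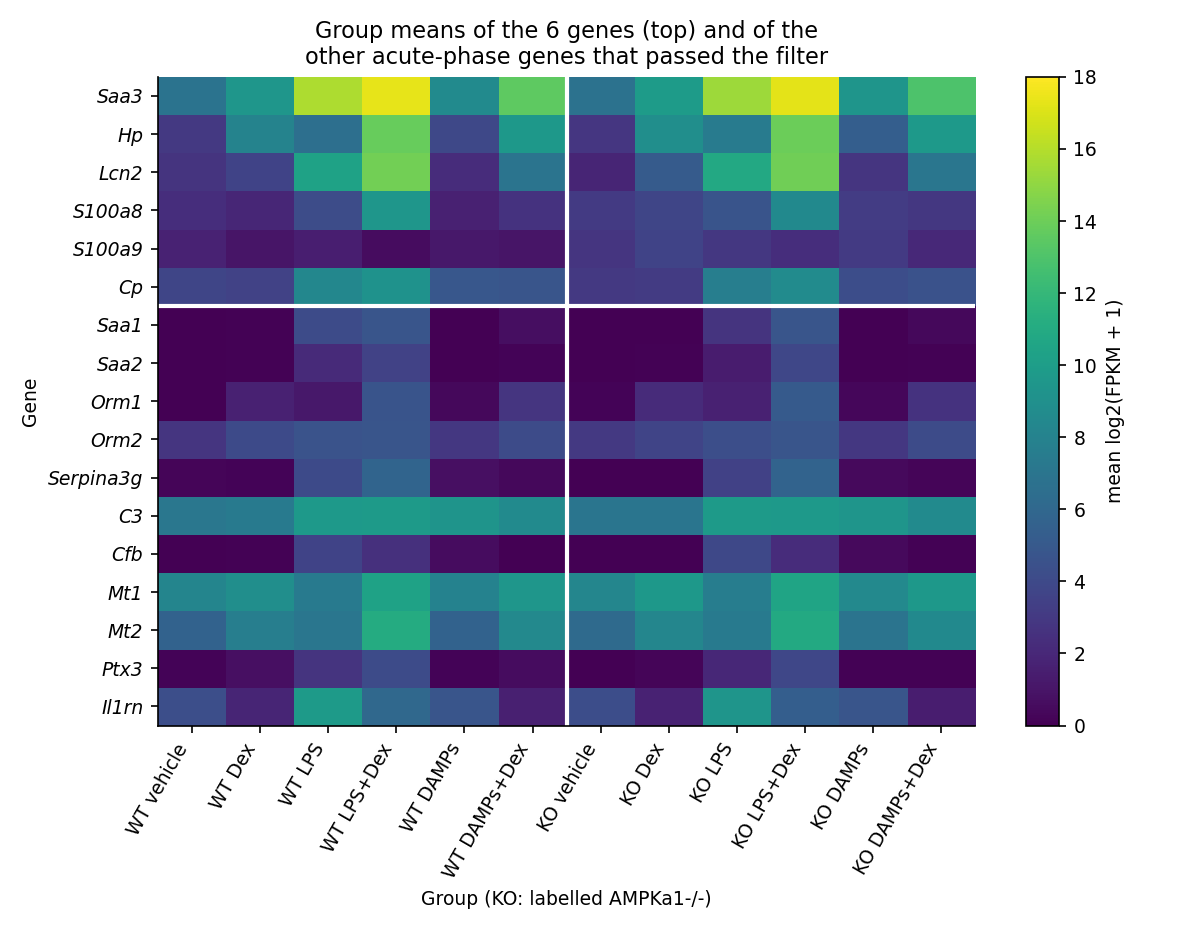
Mean log2(FPKM + 1) (colour) of the 6 genes and of the 11 other acute-phase genes that passed the filter (vertical) in the 12 groups (horizontal), WT on the left. The LPS + Dex columns are brightest for Saa3, Hp, Lcn2, Mt1 and Mt2, whereas Il1rn is brightest in the LPS columns.

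Genes related to the 6 by function did not share one direction. In the Saa family, 3 of the 4 genes in the files were tested. Saa1, Saa2 and Saa3 were higher in KO-labelled LPS against vehicle (background 64.3%) and in LPS + Dex against LPS (background 37.7%). Of these, 1 (Saa3) passed the filter without the libraries given LPS. In the S100 family, 8 of 17 were tested. LPS in KO-labelled BMDMs raised 1 of them, S100a8, and lowered 5, where 64.3% of all tested genes were called. In the same cells LPS + Dex exceeded LPS for 4 (background 37.7%), namely S100a8, S100a6 (0.85, lost without KO LPS replicate 3 at an adjusted p of 0.067), S100a10 (0.73) and S100a1 (0.60). Of 22 other alarmins and antimicrobial proteins, 16 were tested, and in KO-labelled LPS + Dex against LPS 3 were higher and 5 lower (background 37.7%). Lysozyme Lyz2 was at 0.94 (not called without the filter on low values), interleukin-1 alpha (Il1a) at -8.36 and the heat shock genes Hspa1b and Hspa1a at -4.07 and -3.79. Il1a, Camp and Wfdc21 passed the filter only through libraries given LPS, which leaves 13 of the 16 without them.

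Among 18 receptors of the encoded proteins, 14 were tested. In KO-labelled LPS + Dex against LPS 2 were higher and 5 lower, where 37.7% of all tested genes were called. Cd163, the receptor that takes up haptoglobin bound to haemoglobin, rose by 2.23, and the scavenger receptors Cd36 and Msr1 fell by 2.57 and 2.02. Lrp1 was at 1.20 and the LPS co-receptor Cd14 at -0.95, both called. Of 21 iron and copper genes 16 were tested, 4 higher and 1 lower, with a median of -0.0029, against the same background of 37.7%. The ferritin genes Fth1 and Ftl1, Hmox1 and Slc11a1 were not called. Of 24 regulators of acute-phase transcription 23 were tested, and 7 were higher and 13 lower (background 37.7%), with a median of -0.66. The cytokines Il6 (-7.05), Il1b (-6.55), Tnf (-3.45), Lif (-3.25) and Osm (-2.30), which induce acute-phase genes in liver, and the transcription factor Stat3 (-1.02) were lower, as was the inhibitor Socs3 (-1.56). Il6 and Lif passed the filter only through libraries given LPS. Over the 8 negative acute-phase genes, which fall in the liver response, only transferrin (Trf) was tested, and it was not called in this contrast. In KO-labelled BMDMs Trf was called for LPS against vehicle (-1.03), LPS + Dex against Dex (-1.56) and Dex against vehicle (0.67). The WT Dex difference of 0.21 was not called. Its mean over all libraries was 1.07 FPKM, close to the filter.

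The nearest tested protein-coding neighbours of the 6 genes did not share one direction in KO-labelled LPS + Dex against LPS. Beside Saa3 (1.89), Saa1 at 24797 bases was higher by about as much (1.98), and Saal1 at 1318 bases was not called (-0.15). Beside Hp (6.40), Dhodh at 12171 bases was called at 0.55, and Txnl4b at 1077 bases was not called (0.10). Beside Lcn2 (3.23), Ptges2 at 7644 bases and 1110008P14Rik at 2695 bases were called at 1.92 and 1.39. S100a6, 44797 bases from S100a8 (3.92), was called at 0.85, and S100a8 and S100a9 (-0.58) are each other's neighbours, with Gm9774 on the far side of S100a9 not called (-0.30). Beside Cp (0.96), Hps3 was not called (0.46), and Pde7a, 645732 bases away, was called at -0.43, a call that was lost in 9 other fits.

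Across the 12 group means of log2(FPKM + 1), the genes closest to each of the 6 were identified by Pearson r, as a description, since all genes were measured in the same libraries. The 6 genes themselves and identifiers without a symbol were left out of this ranking. For Saa3 these were Igsf6 (0.977), Ublcp1 (0.972) and Gca (0.964). For Hp they were Mt2 (0.983), Orm1 (0.983) and Ube2g2 (0.970), of which Mt2 and Orm1 are acute-phase genes themselves. Lcn2 was followed by Tmem198 (0.987), Chpf (0.984) and Rhoq (0.977), S100a8 by Dbi (0.978), Ctla2a (0.975) and 9130230L23Rik (0.974), and Cp by Mcemp1 (0.984), AW112010 (0.981) and Icosl (0.979). For S100a9 the closest were Gm6166 (0.925), Gm21188 (0.914) and Ngp (0.896). Within the 6, Saa3 and Lcn2 were alike (0.970), whereas S100a8 and S100a9 were not (-0.06).

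Ordered by level, the 12 groups gave the same top pair for all genes but S100a9, the LPS + Dex groups of both genotypes. For Saa3, Lcn2, Hp and S100a8 these overlapped each other and stood apart from the next group. For Cp the WT group stood above the KO-labelled group without overlap (708, 515 and 523 against 357, 489 and 374 FPKM), and the KO-labelled group overlapped WT LPS. The share of all genes whose groups stand apart in this way was not computed. For scale, 37.7% of all tested genes were called in KO-labelled LPS + Dex against LPS. DAMPs + Dex came after both LPS groups for Saa3 and Lcn2 and before them for Hp. At the low end, vehicle and DAMPs groups overlapped for Lcn2, and the other 10 groups of S100a8 overlapped from one to the next.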

How the data were processed

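RNA was taken after 24 h from the 35 BMDM cultures, and the groups follow the GEO labels. The submitters' processing notes name Bowtie2 2.2.3, TopHat2 2.0.12, HTSeq 0.6.1, DESeq2, GRCm38 and mm10, with no role or order. The authors deposited FPKM values per library for 47069 Ensembl identifiers, of which 46488 have a symbol in GENCODE M21 (GRCm38). Gene lengths and library totals were recovered from the steps of the values, which gave whole fragments within 0.01 for 100% of the 11354 tested genes.

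Testing covered genes whose FPKM averaged 1 or more across the 35 libraries (all 6 members among them). It was done on log2(FPKM + 1), which understates changes of low genes, with limma 3.58.1 in R 4.3.3 (12 group means, empirical Bayes with trend, 2-sided, Benjamini-Hochberg over all 11354 genes). A gene is called at an adjusted p under 0.05. Each p-value sets a difference of group means against the spread between libraries of a group, pooled over the 12 groups and moderated across genes. Tables and figures used Python 3.11.15, numpy 2.4.6, pandas 2.3.3, scipy 1.17.1 and matplotlib 3.10.9. The procedure was checked on simulated data. The members, the gene lists and the tests were chosen with earlier results of these data known. Named genes are the members, Prkaa1, the 3 genes with a symbol, other than members, most like each, and the nearest tested protein-coding neighbours. From each list the 4 most abundant are named, and those called in KO LPS + Dex against KO LPS with a log2 difference of at least 2. Orm2, Ptx3, Saa1, Cfb, Col1a1, Col1a2, Dcn, Gfi1, Ly6g, Wfdc21, Mrc1, Fcgr1, Itgam and the primary-granule markers were named besides, after their values were seen.

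The settings changed 1 at a time were the pseudocount (0.1), the filter (none, or an average FPKM of 5), median centring, quantile normalization, totals without the 6 genes, only the groups or only the genotype compared, no moderation, the replicate number as a block, each library left out, and, chosen after seeing the data, voom on the recovered fragments. Deviations from the group means were correlated between same-numbered libraries. All same-number correlations passed 0.1 for 5 of 15 WT and 4 of 15 KO-labelled pairs of groups, among them KO-labelled Dex and vehicle, LPS and vehicle, and LPS + Dex and LPS, and what a number marks is not given. WT LPS replicate 1 was not analysed here.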

Additional observations from a re-analysis of the deposited data

Results flagged for a closer look

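Of the contrasts that test a difference between effects, 1 was called for S100a8, where 28.4% of the 11354 tested genes were called, and 1 for Lcn2, where it was the only gene called (0.00881%). For S100a8 in KO-labelled BMDMs, the Dex effect with LPS exceeded the Dex effect without LPS by 3.19 on the log2(FPKM + 1) scale (limma, adjusted p = 0.000648). All 3 LPS + Dex libraries (307, 301 and 581 FPKM) lay above the 9 libraries of the other treatments in that contrast. For Lcn2 in WT BMDMs, the Dex effect with DAMPs exceeded that without DAMPs by 3.72 (limma, adjusted p = 0.00732), with all 3 DAMPs + Dex libraries (99.00, 93.3 and 182 FPKM) above the 9 others. That call was lost with only the compared groups (adjusted p = 0.192), only WT libraries (adjusted p = 0.293), voom (adjusted p = 0.132), without WT Dex replicate 2 (adjusted p = 0.0564) and without WT DAMPs + Dex replicate 3 (adjusted p = 0.057). The causes were not tested. No group held 4 or more libraries, so single libraries were not tested for standing apart.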

How the results depend on the processing

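Of 38 called differences of the 6 genes, 29 kept their call in each of 11 other settings and 30 fits without 1 library, as far as these apply, and none turned its direction. For other listed genes and neighbours, 77 called differences were followed through these fits, which are not all those counted in the lists. Of these 77, 69 kept their call in each fit and none reversed. The number of the 6 genes called moved by more than 1.5 times in 4 contrasts. For WT DAMPs against vehicle it was 1, against 0 with only the groups compared, 2 with the replicate block and 0 to 2 without 1 library. For KO-labelled DAMPs + Dex against Dex it was 3, and 0 to 3 without 1 library. For the KO-labelled interaction of LPS and Dex it was 1, against 2 with quantile normalization, 2 with totals that leave out the 6 genes, 2 with only the groups compared, and 1 to 2 without 1 library. For the WT interaction of DAMPs and Dex it was 1, against 0 with only the groups compared, 0 with only the genotype compared, 0 with voom and 0 to 1 without 1 library. In 6 other contrasts it moved by 1 gene in some fits: WT Dex against vehicle (2 to 3), WT DAMPs + Dex against DAMPs (3 to 4) and against Dex (2 to 3), KO-labelled LPS + Dex against LPS (4 to 5) and against Dex (5 to 6), and KO-labelled DAMPs against vehicle (2 to 3). The causes of these changes were not tested. Counts of all called genes moved by more than 1.5 times for the small contrasts: WT DAMPs against vehicle (228, other settings 1 to 298, without 1 library 26 to 372), WT DAMPs + Dex against Dex (59, 15 to 141, 12 to 232), KO-labelled DAMPs against vehicle (469, 267 to 453 without 1 library), KO-labelled DAMPs + Dex against Dex (24, 8 to 52, 8 to 19), KO-labelled against WT vehicle (49, 19 to 92, 28 to 58), the WT interaction of DAMPs and Dex (1, 0 to 11, 0 to 39), that in KO-labelled BMDMs (35, 7 to 112, 0 to 49), and the genotype differences in the Dex effect (0, up to 21, up to 1) and in that effect with DAMPs (0, up to 9). At a minimum mean FPKM of 5, S100a9 was not tested. S100a9 rests on as few as 2 fragments in a WT LPS + Dex library, which limits the precision of its level there.

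With the replicate number as a block, Saa3 was called for WT DAMPs against vehicle (1.72, adjusted p = 0.0258), which gave the count of 2. It also called S100a9 lower in KO-labelled LPS + Dex than in Dex (-1.29, adjusted p = 0.0143). The block changed no call of the 38.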
